A study of Homo sapiens with 6 samples.

Results

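Genes for the nuclear pore and for the receptors that carry cargo through it were followed in Caco-2 cells of genotype WT and in Caco-2 cells in which the gene CBS had been targeted. The genes were chosen by symbol: every symbol that starts with NUP and a digit, KPNA, KPNB, IPO and a digit, XPO or TNPO, together with 16 named genes such as POM121, SEC13, TPR, RAN, RCC1 and NXF1. That gave 62 of the 16781 genes listed. No measured value enters the rule, but the family was selected on results of these data that were already known. The counts below are therefore descriptions, set beside the same counts over all genes, and support no statement about the family as a whole.

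Caco-2 is an established line of human colon adenocarcinoma cells. RNA was sequenced in 3 libraries of genotype WT and 3 of genotype CBS KO, in which CRISPR/Cas9 was directed at CBS, a transsulfuration enzyme that also produces hydrogen sulfide. Per the series' design text, a lentivirus brought Cas9 and the guide into the cells, which were selected with puromycin, and no selection of single clones is described. Cells that received the virus with no guide were not analysed here, and effects of the guide, the virus and the drug cannot be told apart. Nothing in the labels ties the 3 libraries of a group to separate cultures. The p-values set the difference between groups only against the spread of these libraries within groups, and that spread may be technical.

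The nuclear pore complex is a ring of many copies of a set of proteins, the nucleoporins, placed where the inner and outer nuclear membranes fuse. Scaffold nucleoporins (the Y complex and the inner ring) shape it, nucleoporins with phenylalanine-glycine repeats fill the channel, and others face the cytoplasm or form the basket on the nuclear side. Importins bind cargo in the cytoplasm and release it when they meet Ran bound to GTP in the nucleus, exportins bind cargo together with that form of Ran, and most mRNA leaves by a separate route, through the receptor NXF1 and its partner NXT1.

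Levels are given as counts per 1000000 counts of a library after scaling by the trimmed mean of M values (CPM, TMM). A gene is called higher, lower, risen or fallen where edgeR's quasi-likelihood test gave a Benjamini-Hochberg adjusted p under 0.05 over all genes tested. WT libraries held between 16097680 and 16176745 counts, and CBS KO libraries between 12805180 and 14307287. Across genes, which are not independent replicates, the lowest correlation of log2 CPM between libraries of the same group was 0.993, and the highest between groups was 0.919. CBS itself stood at 48.8, 53.0 and 50.6 CPM in the WT libraries and at 24.6, 18.5 and 25.4 CPM in the CBS KO libraries. Its mRNA, as counted, was 2.22-fold lower and still present. How reads that also fit its copy CBSL were assigned is not given in the sources used here, so that fold is uncertain. Whether CBS protein was lost cannot be read from RNA levels, and these libraries do not show cells without CBS. Of 12 intestinal epithelial markers 11 could be tested, of which 7 were higher and 3 lower. That is 90.9% called, beside 77.2% of all genes tested. At least 2-fold higher were KRT20 (5.54-fold), LGALS4 (2.33-fold) and EPCAM (2.12-fold). KRT20 and LGALS4 stayed low, at 4.28 and 1.74 CPM on average in CBS KO. At least 2-fold lower were the intestinal regulators CDX2 (3.83-fold) and HNF4A (2.37-fold). CDX1 had 1 count or none in each library. The summed level of the 12 markers was 7994 to 8461 CPM in WT and 9475 to 10267 CPM in CBS KO with TMM. It turned to 8996 to 9578 and 8572 to 8826 per 1000000 counts with library totals. Summed levels of 6 immune markers were 40.3 to 48.5 CPM in WT and 91.7 to 107.9 CPM in CBS KO, with the leukocyte marker PTPRC at 1 count or none in each library. Of the 3 that could be tested, the lysosomal CD68 was higher (32.9 to 91.8 CPM on average) and holds most of that sum, CD14 was 2.17-fold lower and ITGAM did not pass. The 6 fibroblast markers, 5 of them listed, summed to 208 to 238 CPM in WT and 186 to 199 CPM in CBS KO, with COL1A2 at 1 count or none in each library. That sum is mostly COL1A1, which did not pass, while PDGFRA and COL3A1 were 3.48- and 3.51-fold lower and LUM 2.44-fold higher. Their part in the results was not tested. In bulk RNA, fewer cells of a kind and less RNA per cell cannot be told apart.

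In CBS KO the pore's own genes were mostly lower and the receptors were mixed. Of the 62 genes 61 passed the filter on low counts. KPNA7, an importin alpha gene best known from eggs and early embryos, had at most 2 counts in a WT library and 4 in a CBS KO library and was not tested. Of the 61, 52 were called, 15 higher and 37 lower, which is 85.2% beside 77.2% of all 13028 genes tested. Lower calls took 60.7% of these genes beside 38.9% of all genes, and higher calls 24.6% beside 38.4%. Their median log2 fold change was -0.34, beside -0.01 over all genes tested. The 7 genes that were at least 2-fold lower made up 11.5% of them, the same share as over all genes, 11.5%. In 53 of the 61 (86.9%) the 3 WT and 3 CBS KO libraries did not overlap, beside 79.1% of all genes tested. Among the 31 nucleoporins 24 were lower (77.4%) and 5 higher (16.1%), with a median of -0.50. Among the 24 tested import and export receptors 11 were lower (45.8%) and 9 higher (37.5%), with a median of -0.04. The counts by role given below stand beside the same shares of all genes, 38.9% lower and 38.4% higher.

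**Figure D1:**
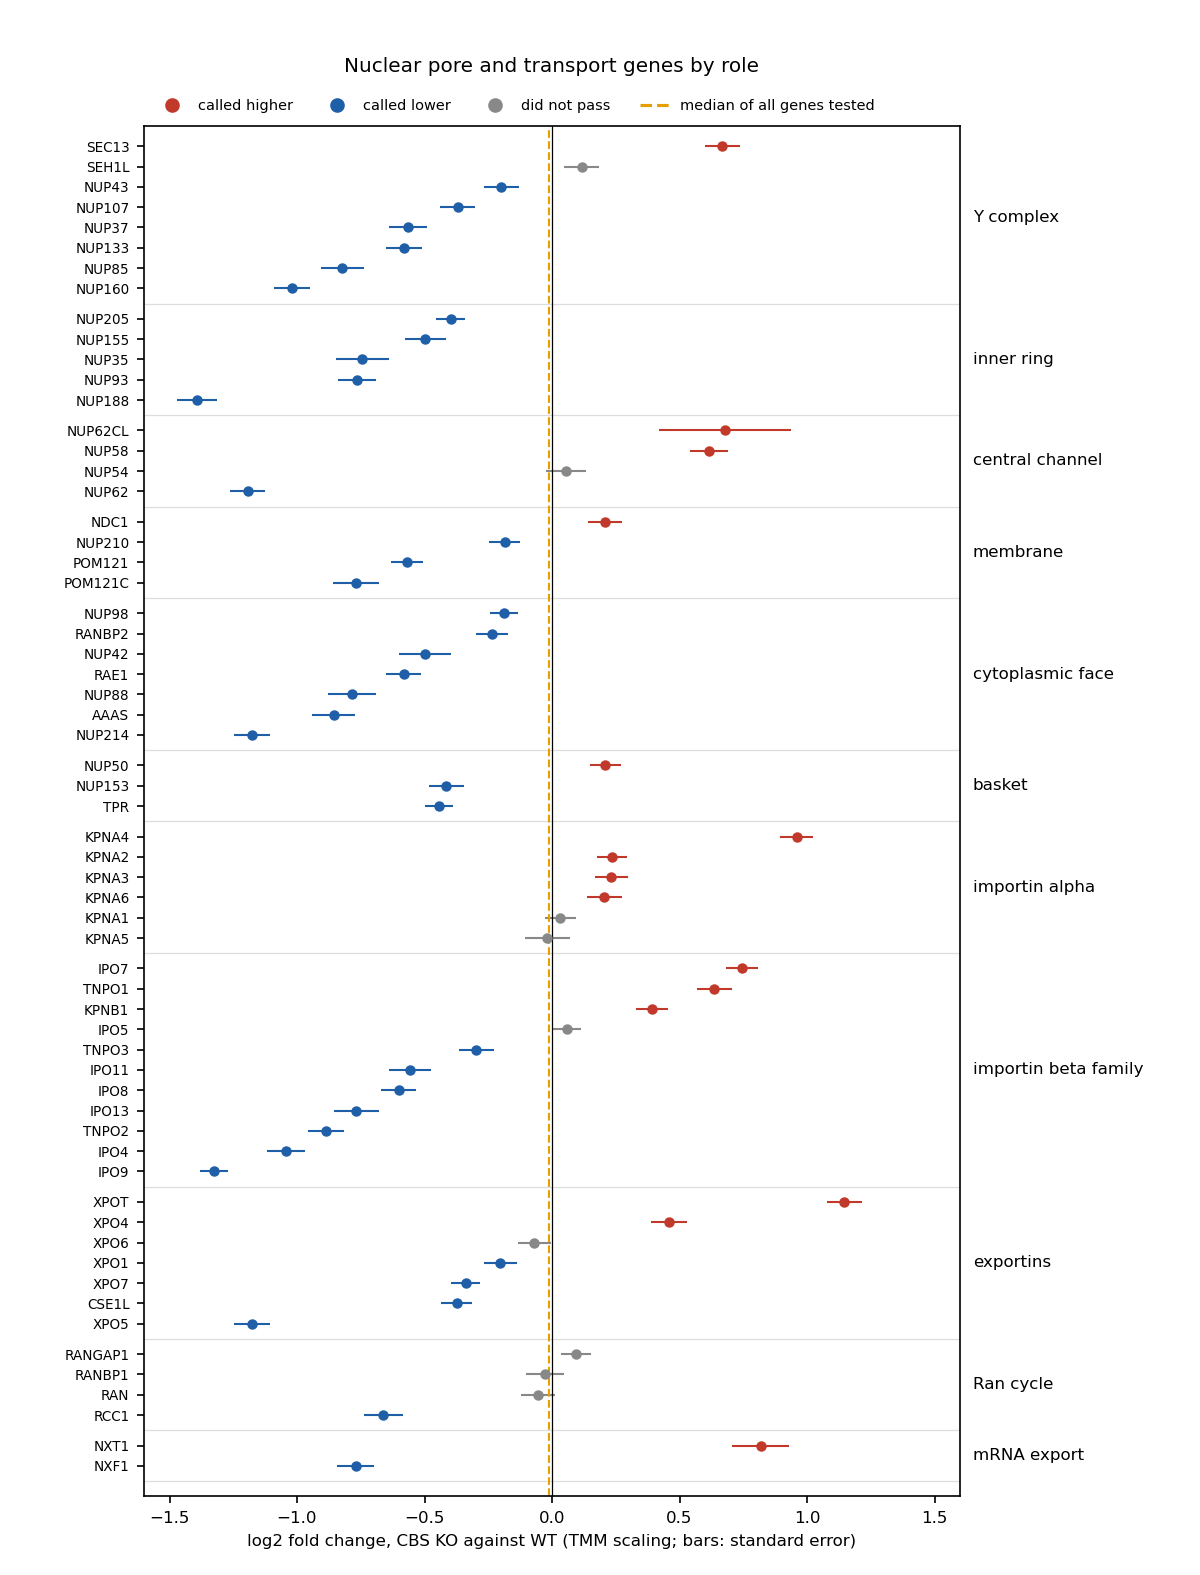
Log2 fold change of each of the 61 tested genes, CBS KO against WT with TMM scaling, ordered by role (rows); bars are standard errors, colours give the call by edgeR's quasi-likelihood test, and the dashed line is the median of all genes tested. The inner ring and the cytoplasmic face lie wholly below 0, with NUP188 lowest at -1.39 and XPOT highest at 1.15.

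Directions near 0 depend on the scaling. Division by the library total alone moved the median of all genes to -0.36 and that of these genes to -0.69, with 7 called higher and 46 lower. Of all 13028 genes tested, 2966 were then higher and 7403 lower. On the log2(FPKM + 1) scale, with limma, 6 were called higher and 47 lower, beside 2823 and 7038 of all 12409 genes tested. On the log2(TPM + 1) scale 2 were higher and 52 lower, beside 1969 and 8451 of all 12786. The distance between the median of these genes and that of all genes was steadier, at -0.33 with TMM and between -0.38 and -0.31 over all 16 settings tried. A change of library factors alone shifts all genes nearly alike. Library totals and median-ratio factors could therefore hardly change this distance, or the count below the median that follows. Of the 61 genes 41 lay below the median of all genes with TMM, and 39 to 46 did so over those settings. In every setting 34 genes were called lower, and XPOT and KPNA4 were called higher. How many of all genes kept a call in every setting was not counted. Settings that move the median of all genes down make lower calls easier to keep and higher calls harder. NDC1, NUP50, KPNA2, KPNA3, KPNA6 and KPNB1 were called higher in some settings and lower in others. All 9 genes that did not pass with TMM were called lower with library totals, with FPKM and with TPM, and of these SEH1L, NUP54, IPO5, KPNA1 and RANGAP1 stood above 0 with TMM.

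**Figure D2:**
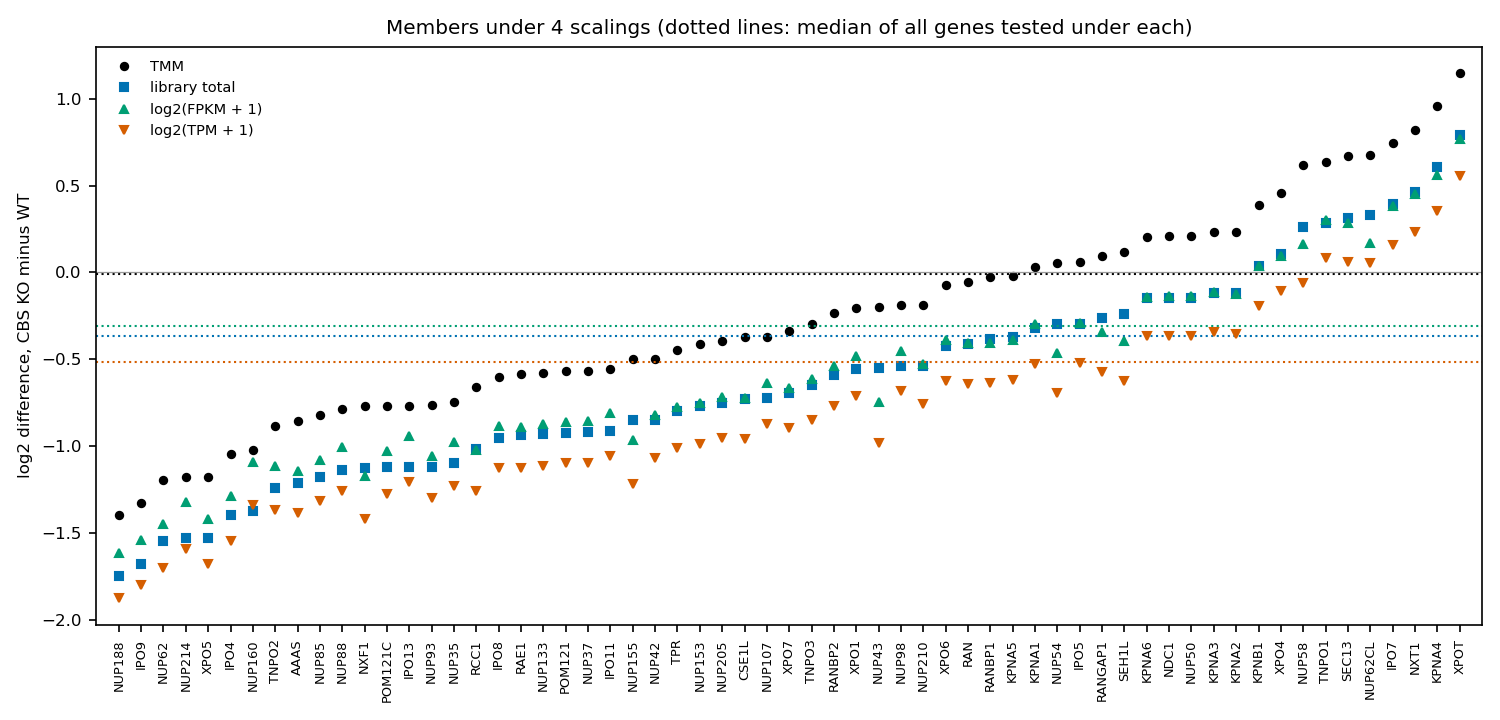
Log2 difference, CBS KO minus WT, of each tested gene (horizontal axis, ordered by the TMM value) under 4 scalings; dotted lines mark the median of all genes under each scaling. The whole family shifts down with the all-gene median, from -0.01 with TMM to -0.52 with TPM, while XPOT and KPNA4 stay above 0 under each scaling shown.

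The 250 bases before the annotated start of 4 genes are shown because, of the called genes with such a sequence at hand, XPOT and NXT1 had the largest folds upward and NUP188 and IPO9 downward. Sequences are those of RefSeq on GRCh38.p14, plus strand, 5′ to 3′. Capitals mark matches, on either strand, to the ETS motif CCGGAAG, the CCAAT box CCAAT or the E-box CACGTG.
XPOT, chr12:64404142-64404391: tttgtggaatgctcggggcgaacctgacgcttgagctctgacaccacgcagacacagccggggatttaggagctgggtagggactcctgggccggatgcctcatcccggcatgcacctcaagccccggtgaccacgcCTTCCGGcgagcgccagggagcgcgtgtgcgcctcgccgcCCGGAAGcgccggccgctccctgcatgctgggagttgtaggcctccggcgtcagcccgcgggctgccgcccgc
NXT1, chr20:23350541-23350790: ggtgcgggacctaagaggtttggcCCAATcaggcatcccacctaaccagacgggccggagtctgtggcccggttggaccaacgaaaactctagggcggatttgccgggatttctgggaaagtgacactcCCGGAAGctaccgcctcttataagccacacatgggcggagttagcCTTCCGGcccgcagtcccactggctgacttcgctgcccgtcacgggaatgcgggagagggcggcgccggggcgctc
NUP188, chr9:128947449-128947698: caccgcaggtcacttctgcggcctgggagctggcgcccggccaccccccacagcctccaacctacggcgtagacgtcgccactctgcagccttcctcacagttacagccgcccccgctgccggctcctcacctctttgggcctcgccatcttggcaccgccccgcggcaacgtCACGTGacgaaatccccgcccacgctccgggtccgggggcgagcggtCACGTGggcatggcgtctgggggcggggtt
IPO9, chr1:201828907-201829156: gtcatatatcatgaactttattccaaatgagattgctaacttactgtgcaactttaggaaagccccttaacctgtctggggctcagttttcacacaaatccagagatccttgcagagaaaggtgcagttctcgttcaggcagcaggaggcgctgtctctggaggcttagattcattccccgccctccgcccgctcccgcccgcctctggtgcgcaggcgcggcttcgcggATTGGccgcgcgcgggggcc

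Both genes that were higher hold 2 matches to the ETS motif, and NXT1 also holds a CCAAT box, farther from its start. NUP188 holds 2 E-boxes and IPO9 holds a CCAAT box near its start. RefSeq gave such a window for 55 of the 62 genes. The ETS motif was present in 18 of the 55 (32.7%), beside 15.7% of the promoters of genes tested and 8.82% of all 27305 promoters. It was about as frequent among the genes called lower (11 of 35, 31.4%) as among those called higher (5 of 13, 38.5%). The CCAAT box was found in 40.0% of the 55 and in 35.4% of the promoters of genes tested, and the E-box in 12.7% and 8.88%. Among genes called lower and higher the CCAAT box was in 14 of 35 (40.0%) and 6 of 13 (46.2%), and the E-box in 3 of 35 (8.57%) and 3 of 13 (23.1%). The amino acid response motif TGATGNAA was found in 1.82% and 1.43%. None of the 4 motifs contains another, and a match says only that these letters are present.

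The Y complex coats the outer face of the membrane on both sides of the pore. Of the 8 genes grouped under it here, which are not its full set, 6 were lower. AHCTF1, counted with the other pore and receptor genes, was 1.27-fold lower. NUP160 (GRCh38 chromosome 11, 47778118 to 47848544) measured 82.6, 83.6 and 92.6 CPM in WT and 44.6, 42.3 and 40.7 CPM in CBS KO. The groups lay far apart, and NUP160 was 2.03-fold lower (log2 fold change -1.02 ± 0.07 SE, adjusted p = 1.26e-09, edgeR). NUP85 measured 45.8, 47.3 and 55.7 CPM in WT against 27.4, 27.3 and 29.4 CPM in CBS KO, 1.77-fold lower. NUP133, NUP37, NUP107 and NUP43 fell by 1.49-, 1.48-, 1.29- and 1.15-fold, of which NUP43 lost its call without WT replicate 3 (adjusted p = 0.0506, edgeR). SEC13 went the other way. It is shared with the COPII coat of vesicles that leave the endoplasmic reticulum, and measured 59.4, 57.2 and 58.7 CPM in WT and 89.7, 88.0 and 100.8 CPM in CBS KO. No CBS KO library was as low as any WT library, and SEC13 was 1.59-fold higher (0.67 ± 0.07 SE, adjusted p = 1.34e-07, edgeR), a call that was lost with TPM. SEH1L, which is shared with the GATOR complex at the lysosome, did not pass the test with TMM (0.12 ± 0.07 SE) and was called lower with library totals (-0.24). Per length, SEC13 was also the most abundant of these 8 genes in WT, at 63.4 ± 0.94 FPKM (SD, n = 3) beside 19.1 ± 1.33 FPKM for NUP160, the least abundant of them.

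All 5 inner ring genes were lower. NUP188 (chromosome 9, 128947699 to 129007096), a large scaffold protein of the ring, measured 109, 107 and 125 CPM in WT and 46.4, 43.8 and 39.9 CPM in CBS KO. The highest CBS KO library was below every WT library by a wide margin. NUP188 was 2.63-fold lower (-1.39 ± 0.08 SE, adjusted p = 8.41e-11, edgeR), the lowest fold of the family and lower than that of all but 5.6% of genes tested. NUP205, a related large scaffold protein, was the most abundant inner ring gene per length in WT, at 29.5 ± 0.95 FPKM, and was 1.32-fold lower, from 152, 155 and 161 CPM to 123, 116 and 117 CPM. NUP93, which links the ring to the central channel, was 1.70-fold lower, from 57.5, 54.6 and 59.5 CPM to 36.6, 31.6 and 32.8 CPM. The membrane-binding NUP35 and NUP155 were 1.67- and 1.41-fold lower.

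The central channel genes were split. NUP62 (chromosome 19, 49906825 to 49929504), which lines the channel with phenylalanine-glycine repeats, measured 80.1, 86.7 and 88.1 CPM in WT and 36.6, 38.5 and 36.4 CPM in CBS KO, and was 2.29-fold lower (-1.19 ± 0.07 SE, adjusted p = 1.2e-10, edgeR). NUP58, its partner in the same channel complex, measured 62.8, 63.2 and 57.4 CPM in WT and 98.7, 99.1 and 83.5 CPM in CBS KO, 1.53-fold higher with TMM but at -0.06 on the log2 scale with TPM. NUP54, the other partner, lay at 39.8 to 43.1 CPM in WT and 38.0 to 46.0 CPM in CBS KO, overlapped between groups, and did not pass with TMM (0.05 ± 0.08 SE), though it was called lower with library totals (-0.30). With TMM, partners in a single complex thus differed in direction. NUP62CL, a gene related in sequence to NUP62, had 1.15 to 1.59 CPM in WT and 1.63 to 3.03 CPM in CBS KO. Its call as higher (adjusted p = 0.0253, edgeR) was lost without WT replicate 3 (0.101), without CBS KO replicate 1 (0.224) and with DESeq2 (0.0998).

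Of the membrane nucleoporins, which anchor the pore, 3 of 4 were lower. POM121 and POM121C are nearly identical in sequence, so how their reads were divided is uncertain. POM121C measured 74.8, 75.0 and 71.0 CPM in WT and 47.8, 46.1 and 35.8 CPM in CBS KO, 1.70-fold lower, and POM121 measured 128 to 133 CPM in WT and 83.1 to 93.5 CPM in CBS KO, 1.48-fold lower. In neither gene did the groups overlap. NUP210 was 1.14-fold lower, a call lost without CBS KO replicate 2 (adjusted p = 0.0523, edgeR). NDC1 was 1.16-fold higher with TMM and at -0.15 on the log2 scale with library totals, and its call was lost without WT replicate 1 (0.0708).

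All 7 genes grouped here under the cytoplasmic face were called lower, though the direction for RANBP2 is uncertain, as described below. NUP214 (chromosome 9, 131125586 to 131234663), a docking site for export complexes, measured 77.4, 76.2 and 77.2 CPM in WT and 34.6, 35.8 and 31.8 CPM in CBS KO, and was 2.26-fold lower (-1.18 ± 0.07 SE, adjusted p = 1.5e-10, edgeR). Its WT libraries differed by little more than 1 CPM. NUP88, the partner that holds NUP214 at the pore, was 1.72-fold lower, from 24.6, 30.5 and 28.7 CPM to 16.5, 15.3 and 16.8 CPM. AAAS, which encodes aladin, the protein altered in triple A syndrome, was 1.81-fold lower, from 34.0, 32.6 and 37.1 CPM to 17.5, 19.8 and 20.1 CPM. RAE1, an mRNA export factor that binds NUP98, was the most abundant of these genes per length in WT, at 65.2 ± 2.35 FPKM, and was 1.5-fold lower. NUP42 was 1.41-fold lower and NUP98 1.14-fold lower.

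RANBP2, the giant nucleoporin of the cytoplasmic filaments, was 1.18-fold lower, from 224, 228 and 242 CPM to 203, 205 and 181 CPM (-0.24 ± 0.06 SE, adjusted p = 0.00222, edgeR). It has copies in the genome, the RGPD genes, of which RGPD3, RGPD4, RGPD6 and RGPD8 were called higher. The 7 RGPD genes listed summed to 108 ± 2.0 CPM (SD, n = 3) in WT and 222 ± 34.3 CPM in CBS KO, of which RGPD6 held 60.9 ± 4.38 and 135 ± 21.1 CPM. RANBP2 and its copies together came to 330, 338 and 349 CPM in WT and 442, 450 and 364 CPM in CBS KO. With TMM the sum was higher in each CBS KO library than in any WT library, opposite to RANBP2 alone, but with library totals it was 372, 383 and 395 in WT and 400, 400 and 313 in CBS KO, per 1000000 counts, and the groups overlapped. How reads that fit several copies were assigned is not given in the sources used here, so the direction for RANBP2 is uncertain.

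In the basket 2 of 3 genes were lower. TPR, the coiled-coil protein that forms its filaments, was the most abundant per length in WT, at 39.2 ± 0.43 FPKM, and was 1.36-fold lower, from 326, 320 and 327 CPM to 243, 244 and 228 CPM. NUP153, which attaches TPR, was 1.33-fold lower, from 95.8 to 103.6 CPM in WT to 67.8 to 79.9 CPM in CBS KO. NUP50, a mobile cofactor of import, was 1.16-fold higher with TMM, and at -0.14 on the log2 scale with library totals.

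Importin alpha proteins read the classical nuclear localization signal. Of their 6 tested genes 4 were higher and none lower under TMM, so 66.7% were called, beside 77.2% of all genes. KPNA4 (chromosome 3, 160495007 to 160565571) measured 83.9, 78.7 and 83.5 CPM in WT and 172, 157 and 150 CPM in CBS KO. Every CBS KO library was well above every WT library, and KPNA4 was 1.94-fold higher (0.96 ± 0.06 SE, adjusted p = 8.07e-10, edgeR). KPNA2 was by far the most abundant per length, at 234 ± 6.77 FPKM in WT beside 7.99 to 20.8 FPKM for KPNA5, KPNA4, KPNA6, KPNA1 and KPNA3. It was 1.18-fold higher with TMM, from 337, 347 and 356 CPM to 405, 388 and 431 CPM, but its log2 difference was -0.12 with library totals and -0.35 with TPM. KPNA3 and KPNA6, 1.18- and 1.15-fold higher with TMM, turned in the same way, to -0.12 and -0.15 with library totals, and KPNA6 lost its call without WT replicate 1 (adjusted p = 0.0514, edgeR) or without CBS KO replicate 1 (0.0968). KPNA1 (0.03 ± 0.06 SE) and KPNA5 (-0.02 ± 0.09 SE) did not pass.

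The importin beta family, whose members bind cargo directly or through importin alpha, held large differences in both directions, with 3 higher and 7 lower of 11. IPO9 (chromosome 1, 201829157 to 201884291), a carrier of histones H2A and H2B, measured 197, 205 and 206 CPM in WT and 82.0, 79.1 and 81.5 CPM in CBS KO. Both groups were tight, and IPO9 was 2.51-fold lower (-1.33 ± 0.06 SE, adjusted p = 2.84e-12, edgeR). IPO4, a carrier of histones H3 and H4 with their chaperone, was 2.06-fold lower, from 55.3, 53.9 and 57.7 CPM to 28.6, 25.3 and 27.0 CPM (chromosome 14, 24180219 to 24188816). TNPO2, a close relative of TNPO1, was 1.85-fold lower, from 61.5, 61.8 and 66.4 CPM to 32.9, 33.7 and 35.9 CPM. The other genes called lower were IPO13, IPO8, IPO11 and TNPO3, the last a carrier of serine- and arginine-rich splicing factors, at 1.70-, 1.52-, 1.47- and 1.23-fold.

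IPO7 (chromosome 11, 9384652 to 9448127), which carries ribosomal proteins among other cargo, measured 426, 422 and 432 CPM in WT and 768, 708 and 669 CPM in CBS KO. No library of one group came near the other, and IPO7 was 1.68-fold higher (0.75 ± 0.06 SE, adjusted p = 1.59e-08, edgeR). TNPO1, the carrier of hnRNP proteins, was 1.55-fold higher, from 141, 144 and 156 CPM to 246, 235 and 205 CPM. Both calls were lost with TPM. KPNB1, importin beta itself and the most abundant of the family per length (219 ± 3.31 FPKM in WT), measured 1105, 1112 and 1133 CPM in WT and 1477, 1447 and 1470 CPM in CBS KO, 1.31-fold higher with TMM but at -0.19 on the log2 scale with TPM. IPO5 did not pass with TMM (0.06 ± 0.06 SE) and was called lower with library totals (-0.30). Summed over the family, in which KPNB1 and IPO7 weigh most, WT averaged 2531 CPM and CBS KO averaged 3018 CPM with TMM, and 2860 and 2670 per 1000000 counts with library totals, where the direction turned and the groups overlapped.

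Of the 7 exportin genes 2 were higher and 4 lower. XPOT (chromosome 12, 64404392 to 64451125), which carries mature tRNA out of the nucleus, measured 109, 120.4 and 134 CPM in WT and 276, 274 and 257 CPM in CBS KO. The lowest CBS KO library was far above the highest WT library. XPOT was 2.21-fold higher (1.15 ± 0.07 SE, adjusted p = 2.16e-10, edgeR), the highest fold of the family. XPO5 (chromosome 6, 43522334 to 43576038), the carrier of microRNA precursors, measured 99.4, 102 and 110.2 CPM in WT and 48.7, 43.9 and 45.1 CPM in CBS KO, and was 2.26-fold lower (-1.18 ± 0.07 SE, adjusted p = 1.61e-10, edgeR). The carriers of tRNA and of microRNA precursors thus stood at opposite ends of the exportins. CSE1L, which returns importin alpha to the cytoplasm and was the most abundant exportin gene per length (133 ± 10.0 FPKM in WT), was 1.30-fold lower, from 367, 369 and 417 CPM to 301, 288 and 300.3 CPM. XPO1, the general exporter of proteins with a leucine-rich signal, was 1.15-fold lower, a call lost without WT replicate 3 (adjusted p = 0.0508, edgeR), and XPO7 was 1.26-fold lower. XPO4 was 1.37-fold higher with TMM and at -0.11 on the log2 scale with TPM. XPO6, the exporter of actin with profilin, did not pass (-0.07 ± 0.07 SE).

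**Figure D3:**
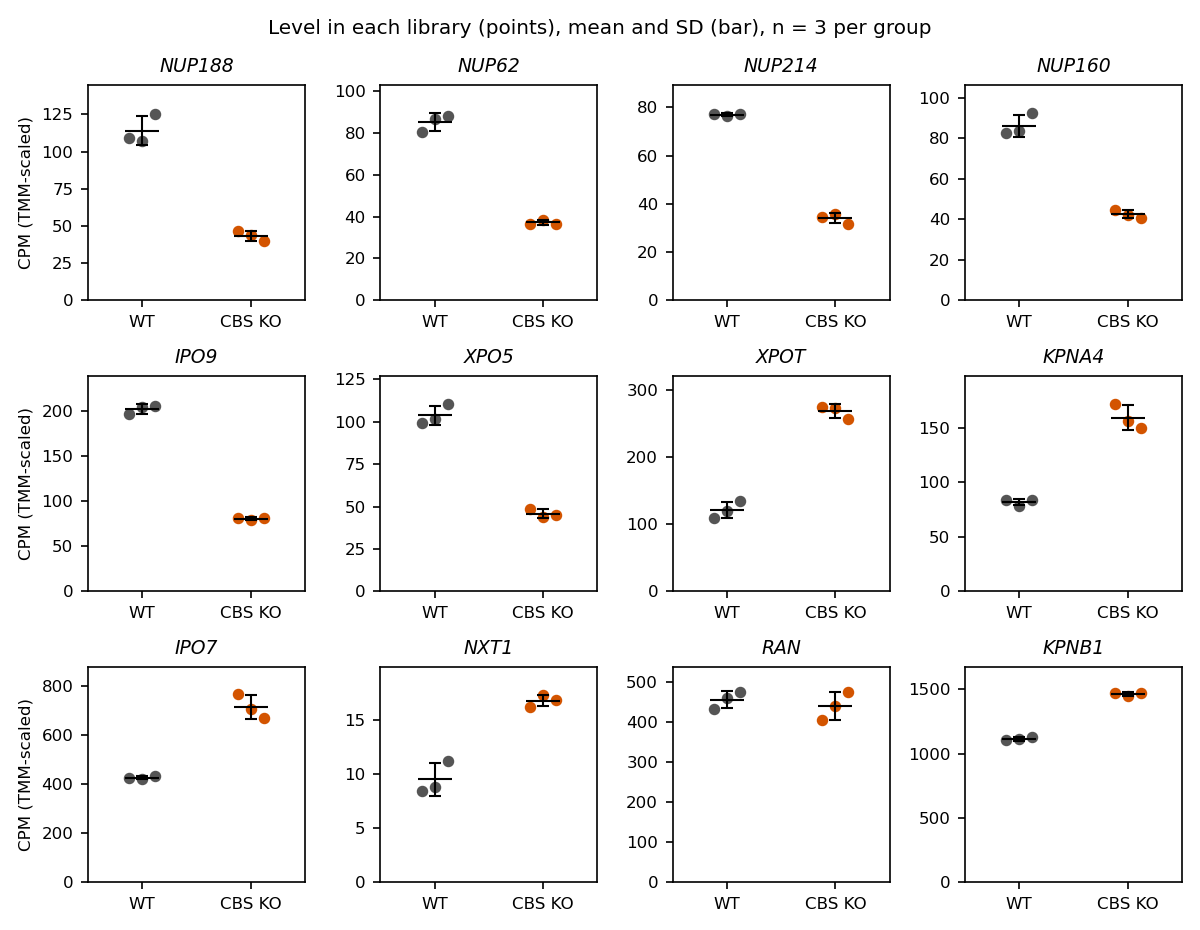
Level of 12 genes in each library (points, CPM with TMM scaling), with the mean (long bar) and SD (short bars) of the 3 WT and the 3 CBS KO libraries. WT and CBS KO points are apart for each gene except RAN, whose libraries run from 433 to 474 CPM in WT and from 404 to 473 CPM in CBS KO.

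The Ran cycle supplies the gradient that gives transport its direction, and its genes were among the most abundant of the family. RANBP1 stood at 251 ± 28.8 FPKM and RAN at 236 ± 11.5 FPKM in WT. RAN measured 433, 459 and 474 CPM in WT and 404, 440 and 473 CPM in CBS KO, so the groups overlapped and the test was not passed (-0.05 ± 0.07 SE), although without CBS KO replicate 3 RAN was called lower (-0.12, adjusted p = 0.0419, edgeR). RANBP1 and RANGAP1, which help Ran hydrolyse GTP in the cytoplasm, did not pass either (-0.03 ± 0.08 SE and 0.09 ± 0.06 SE). All 3 were called lower with library totals, at -0.41, -0.38 and -0.26 on the log2 scale. RCC1, the chromatin-bound exchange factor that loads Ran with GTP, measured 101, 102 and 117 CPM in WT and 61.7, 67.2 and 72.9 CPM in CBS KO, and was 1.58-fold lower (-0.66 ± 0.08 SE, adjusted p = 6.51e-07, edgeR) with no overlap.

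The heterodimer that exports mRNA was split. NXT1 (chromosome 20, 23350791 to 23354771), its small partner, measured 8.46, 8.83 and 11.2 CPM in WT and 16.2, 17.3 and 16.8 CPM in CBS KO, 1.76-fold higher (0.82 ± 0.11 SE, adjusted p = 4.93e-06, edgeR), a call lost with TPM. NXF1, the receptor, measured 52.7, 48.8 and 52.6 CPM in WT and 31.0, 31.1 and 28.3 CPM in CBS KO, 1.71-fold lower (-0.77 ± 0.07 SE, adjusted p = 5.24e-08, edgeR). In both genes the groups lay apart.

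Ratios of a pair of genes within a library do not depend on how libraries are scaled. Ratios of FPKM do depend on the length by which each gene's reads were divided. The ratio of that length, CBS KO over WT, was 0.876 for NUP160, 1.09 for NXF1 and 1.07 for NUP58. It was between 0.989 and 1.02 for the other genes of the pairs. The 8 pairs below were chosen after their values were seen, and their ratios of FPKM are descriptions with no test. The ratio of NXT1 to NXF1 was 0.522, 0.581 and 0.682 in the WT libraries and 1.87, 1.97 and 2.05 in the CBS KO libraries, 3.3-fold higher on average, so the partner went from the less to the more abundant of the pair per length. NUP58 to NUP62 went from 0.711 ± 0.063 (SD, n = 3) to 2.3 ± 0.18, and SEC13 to NUP160 from 3.32 ± 0.229 to 9.26 ± 1.09. XPOT to XPO5 went from 0.967 ± 0.050 to 4.85 ± 0.269, a 5.02-fold difference, and IPO7 to IPO9 from 3.99 ± 0.101 to 16.8 ± 1.13. KPNA4 to KPNA3 went from 0.515 ± 0.016 to 0.85 ± 0.021. RCC1 to RAN went down, from 0.244 ± 0.013 to 0.157 ± 0.001. KPNA2 to KPNB1, the classical import pair, was close to even in each library, at 1.05 to 1.08 in WT and 0.917 to 1.0 in CBS KO.

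**Figure D4:**
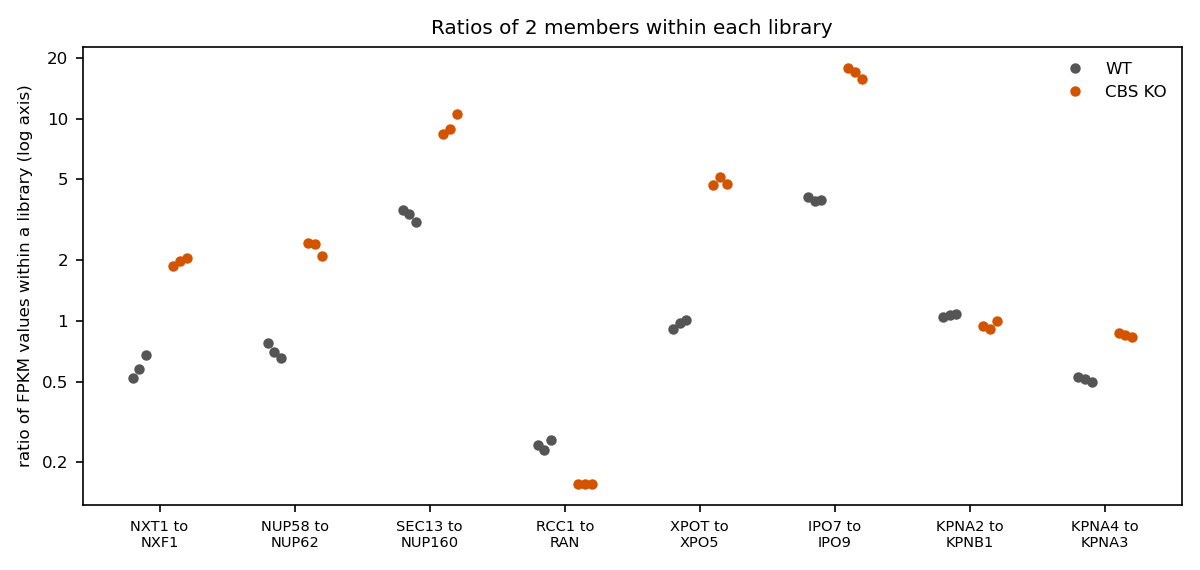
Ratio of FPKM values of 2 genes within each library (vertical log axis) for 8 pairs; points are the 3 WT and the 3 CBS KO libraries. The groups do not overlap for any pair, with the widest gap for XPOT to XPO5 and the narrowest for KPNA2 to KPNB1.

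Reads of neighbouring genes could enter some of these values. In the GENCODE annotation 9 of the 62 genes share exon bases with another gene on the same strand, among them NUP62 with IL4I1 and RCC1 with SNHG3, and 20 with a gene on the opposite strand, among them NUP188 with SH3GLB2, NUP62 with ATF5, XPO5 with POLR1C and IPO4 with REC8. The library protocol marks strand, and whether the counting used it is not given in the sources used here, so the values of these genes are uncertain. Across the 61 genes, which are not independent replicates, log2 fold change and log2 coding length had r of -0.35 and rho of -0.34. With transcript length r was 0.017 and rho 0.096, with genomic span 0.031 and 0.14, and with the number of exons -0.23 and -0.28. The values for coding length over 12954 of all genes tested were -0.17 and -0.18, and the genes within a library share its depth.

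Genes that work beside the family were mixed, as were all genes tested, of which 38.4% were higher and 38.9% lower. Of 22 tested genes of a list of other pore and receptor genes 9 were higher (40.9%) and 8 lower (36.4%), with a median of 0.04. NMD3, the adaptor that takes the large ribosomal subunit to XPO1, was 1.45-fold higher with TMM, from 116, 109 and 108 CPM to 163, 159 and 159 CPM, but at -0.06 on the log2 scale with TPM. TMEM33, a membrane protein that binds nucleoporins, was 1.56-fold higher with TMM, from 36.9, 39.1 and 39.8 CPM to 65.9, 65.8 and 49.0 CPM, and at -0.05 with FPKM. RANBP3, a cofactor of XPO1, and GLE1, the activator of the mRNA export helicase at the pore, were 1.73- and 1.72-fold lower. Of 20 tested genes of the TREX complex and other mRNA adaptors 7 were higher (35%) and 10 lower (50%), with a median of -0.23. There DDX39B, the helicase that loads NXF1 adaptors, was 2.02-fold lower, from 234, 250 and 252 CPM to 123, 119 and 122 CPM, and MCM3AP, the scaffold of the TREX-2 complex, was 2.05-fold lower. FYTTD1, an adaptor for NXF1, was 1.74-fold higher, and ZC3H11A was 1.41-fold higher with TMM and at -0.06 on the log2 scale with TPM. Of 19 genes of the lamina and nuclear envelope 9 were higher (47.4%) and 8 lower (42.1%), with a median of 0.15. TOR1AIP2, an activator of torsin ATPases, was 3.28-fold higher, from 76.7, 72.2 and 76.5 CPM to 268, 254 and 217 CPM, and SUN2, which links the lamina to the cytoskeleton, was 1.93-fold higher. LMNB1, lamin B1, was 1.88-fold lower, from 136, 140 and 147 CPM to 77.3, 75.7 and 71.5 CPM, and SYNE2, the partner of SUN proteins in the outer membrane, was 1.80-fold lower.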

How the data were processed

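Polyadenylated RNA of 3 WT and 3 CBS KO libraries was sequenced in pairs with dUTP strand marking, per the labels' protocols. HISAT2 2.2.1, StringTie 2.1.6, cutadapt 1.9, edgeR and DESeq2 are listed in the submitters' processing notes, with the build GRCh38 and no roles. The authors deposited estimated counts per gene, 7.12 to 7.43% of them fractional. FPKM (per gene length and library total) and TPM (1000000 per library) were also deposited by the authors, per the file headers. How reads were assigned, with or without strand, and how repeats were handled is not given in the sources used here.

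The counts were rounded, filtered with filterByExpr (13028 genes kept), scaled by TMM and tested with edgeR 4.0.16 (quasi-likelihood, robust, all 6 libraries, no covariate) in R 4.3.3, with Benjamini-Hochberg adjustment over all genes tested and a threshold of 0.05. The standard errors given with edgeR's log2 fold changes are not output of that test. They were derived as the absolute log2 fold change divided by the square root of the test's F statistic. A count of 0 allows up to 0.164 to 0.264 CPM (3 counts), for counting error only. FPKM and TPM were tested with limma 3.58.1 as log2 of the value plus a pseudocount of 1 (or 0.1), in genes with a mean of at least 0.5; such differences understate changes of low genes. DESeq2 1.42.0, library totals, median-ratio factors, other filters, a replicate block and leaving out each library were tried as well. The code was tested on simulated data in which far fewer genes changed than were called here, about as many up as down. That simulation therefore cannot check the scaling or the calls of these data.

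The genes and lists were chosen with earlier results of these data known, and counts over them are descriptions. Genes described by name were CBS; in each role, genes called with at least a 1.5-fold change (up to 3 per direction) and the one with the highest FPKM in WT; and up to 2 called genes per direction in each other list. Other genes of the family were named after their values were seen. The lists for endothelial cells (3 of 4 genes in the table) and the 293T cells that made the virus (2 of 5 in the table) summed to 25.4 to 29.2 and 1.04 to 1.37 CPM in WT, and to 9.23 to 9.92 and 1.46 to 1.93 CPM in CBS KO. Gene and promoter positions are those of RefSeq on GRCh38.p14, and coding lengths and exon overlaps those of GENCODE.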

Additional observations from a re-analysis of the deposited data

How the results depend on the processing

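Library totals changed the scaling alone, while the FPKM and TPM settings also changed the test to limma, the pseudocount and the filter. Over all genes 4998 were higher and 5062 lower with TMM (49.7% of calls higher), 2966 higher with library totals (28.6%), 2823 with log2(FPKM + 1), 2818 with log2(FPKM + 0.1), and 1969 higher and 8451 lower with log2(TPM + 1) (18.9%). Of the nuclear transport genes 15 were higher with TMM, and 7, 6, 6 and 2 under these settings in the same order, with medians of -0.69, -0.66, -0.69 and -0.90 beside -0.34. Directions turned for KPNA2 (-0.12 with library totals, -0.12 with log2(FPKM + 1), -0.12 with log2(FPKM + 0.1), -0.35 with TPM), for TMEM33 (-0.048 with log2(FPKM + 1), -0.052 with log2(FPKM + 0.1), -0.27 with TPM), and with TPM for NUP58 (-0.062), KPNB1 (-0.19), NMD3 (-0.061) and ZC3H11A (-0.064). NDC1, NUP50, KPNA3 and KPNA6 also turned below 0 with library totals, both FPKM settings and TPM, and XPO4 did so with TPM (-0.11). RANBP1 was not called with TMM, and was called lower with library totals (-0.38), both FPKM settings (-0.40 in each) and TPM (-0.64). With single libraries left out it was not called. It then ranged from -0.088 without WT replicate 1 to 0.067 without WT replicate 3, and stood at 0.0078 without CBS KO replicate 1. Under all 4 settings the 9 genes not called with TMM were called lower. Of these SEH1L, NUP54, IPO5, KPNA1 and RANGAP1 had stood above 0 with TMM. Sums over lists with library totals were added after seeing the data. With each library left out in turn, 13 to 15 of these genes were higher and 35 to 38 lower, with medians of -0.35 to -0.32. Over all genes 4744 to 5028 were higher and 4818 to 5234 lower. Median-ratio factors, DESeq2 and both other filters gave 14 or 15 higher and 37 lower. With the replicate number as a block 15 were higher and 37 lower, and 4986 and 5058 of all genes. Same-numbered libraries deviated together at r of 0.067, 0.00687 and 0.0386, so the numbers were not taken as pairs, although 5 of 6 libraries correlated best with their own number. Depth limits NUP62CL and KPNA7 most, and 3 libraries in a group limit every spread.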

Other observations

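A gene's FPKM, its count and the library total together imply the length by which the reads were divided, which differs between libraries where the authors' tool weighted transcripts of different length. Of the family 59 genes had a mean of at least 5 FPKM. Their ratio of implied length, CBS KO over WT, had a median of 1.0 and ran from 0.876 to 1.17, beside a median of 1.0 and a 5th to 95th percentile of 0.924 to 1.08 over 9021 genes tested at that level. NUP155, a scaffold of the inner ring, had implied lengths of 5246, 5477 and 5219 bases in WT and 6456, 6101 and 6061 bases in CBS KO. NUP43, of the Y complex, went from 3051, 3200 and 3070 bases to 3670, 3581 and 3612 bases, and NUP54, of the central channel, from 1993, 1977 and 1984 bases to 2211, 2308 and 2243 bases. NUP160 went the other way, from 5120, 5089 and 5078 bases to 4348, 4488 and 4560 bases. For these 4 genes, chosen after the values were seen, the groups do not overlap, and FPKM and count fold changes differ accordingly. Which transcripts lie behind these lengths was not tested.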
